A study of Mus musculus with 3 samples.

Results

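The lysosome genes described here are a set of 39 named genes, taken by an exact match of their symbols in the deposited count table, out of 56748 genes. They comprise 9 lysosomal and late endosomal membrane proteins including Cd68, Cd63 and Litaf, 10 cathepsins and related peptidases, 9 enzymes that degrade glycans, 6 proteins of lipid breakdown together with prosaposin and progranulin, 3 subunits of the lysosomal proton pump, and the transcription factors Tfeb and Tfe3. Their transcript levels were measured by RNAseq in cultured adult mouse cardiomyocytes (ACMs), isolated from hearts of WT mice 8 to 10 weeks old. A library each was made from ACMs given vehicle (0.1% BSA), 10 ng/mL human interleukin-6 (IL-6) or 10 ng/mL mouse oncostatin M (OSM) for 16 h in the same serum-free medium, so that insulin, transferrin, selenium, lipids and the contraction inhibitor BDM were shared by all groups. OSM and IL-6 are cytokines that signal through the shared receptor subunit gp130, and the comparisons ask which transcripts differ when ACMs meet either cytokine. RNA was pooled before sequencing. Each condition therefore had 1 library and no replicate check, and every comparison below is between libraries.

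Lysosomes are acidic organelles in which hydrolases break down protein, glycan, lipid and nucleic acid delivered by endocytosis and autophagy. A proton pump in the lysosomal membrane keeps the lumen acidic, and highly glycosylated membrane proteins line its inner face. TFEB and its relative TFE3 bind the sequence CACGTG near the start of many lysosome genes and are known activators of them. In the heart, loss of the glycogen-degrading enzyme encoded by Gaa or of the membrane protein encoded by Lamp2 causes storage cardiomyopathy.

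The libraries held 24939980 (vehicle), 26362446 (IL-6) and 30773001 (OSM) counts assigned to genes. Of 12 cardiomyocyte markers, all were counted in each library and together they took 4.46% of counts with vehicle, 4.56% with IL-6 and 4.91% with OSM. The libraries were put on a common scale with TMM factors, and genes with at least 10 counts over a pair of libraries were compared. Fold changes are ratios of these scaled counts on the log2 scale, with 95% Clopper-Pearson intervals from how the summed count divides between the libraries. They cover counting error only, because each condition had 1 library. PCR copies of a molecule were not told apart by identifiers, so the intervals can be too narrow even for counting error. A call, higher or lower, means that the interval as a whole lay past 2-fold. Levels of different genes are compared in FPKM, which is scaled by gene length.

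With OSM, 3 lysosome genes were called higher than with vehicle, Litaf, Cd63 and Cd68, and 0 were called lower. Of the 39 genes, 38 had enough counts to be compared. The exception, Ctss, which encodes the antigen-processing protease cathepsin S, had 0 counts with vehicle, 2 with IL-6 and 2 with OSM, at or under the floor of 3 counts. The 3 genes are 7.89% of the 38, beside 3.70% of all 15537 genes called higher and 5.46% called lower in that pair of libraries. Cd68 and Litaf were put in the set with earlier results known, and among the other 36 compared genes 1, Cd63, was called higher. The median log2 fold change of the lysosome genes was 0.04, and that of all genes compared was −0.0014. Of the 38 genes, 27 lay within 0.5 of 0 on the log2 scale. The middle portion of the lysosome genes, between the quartiles, ran from −0.25 to 0.41, and that of all genes from −0.54 to 0.45. Counting intervals lay wholly above 0 for 17 lysosome genes and wholly below 0 for 15, so smaller differences ran in both directions.

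With IL-6 against vehicle, 0 of the 38 lysosome genes were called higher and 0 lower, beside 1.77% and 1.74% of all genes. Their median log2 fold change was 0.01, and 37 of them lay within 0.5 of 0. Counting intervals included 0 for 24 genes. The values ran from −1.26 for Gla to 0.50 for Galns. Between the cytokines, the OSM library had the same number called, 3 higher and 0 lower than with IL-6, beside 4.24% and 5.44% of all genes, and these were again Litaf, Cd63 and Cd68. The OSM comparisons share the OSM library, and both comparisons with vehicle share the vehicle library, so they are given side by side and are not independent of each other.

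**Figure D1:**
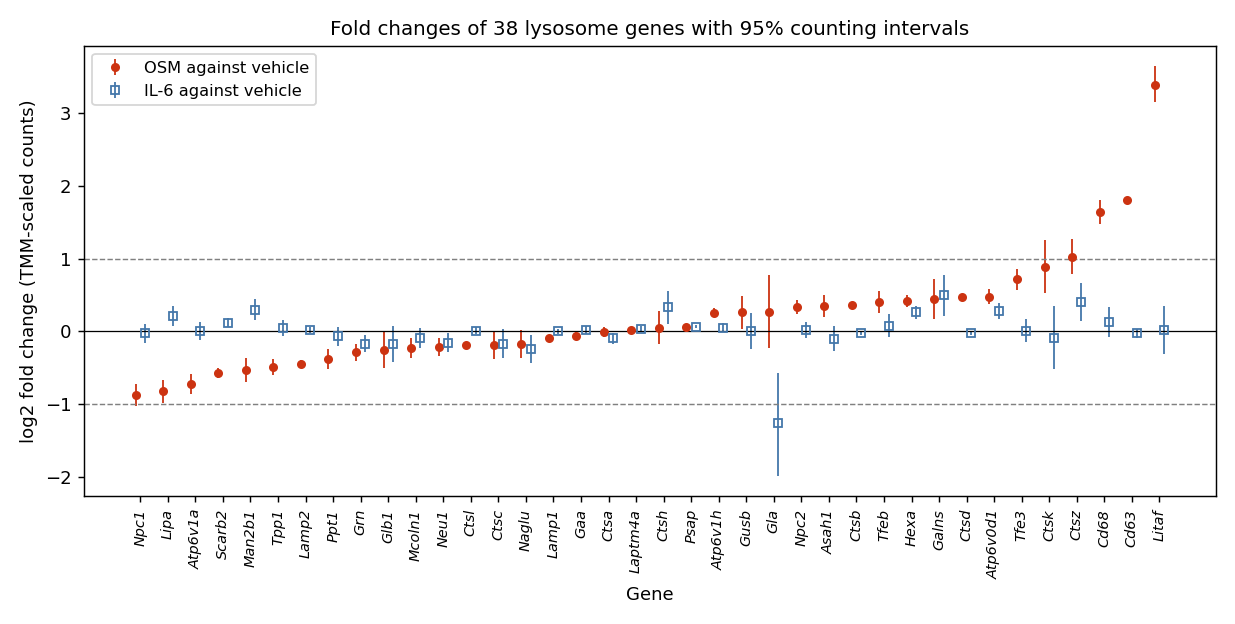
Log2 fold changes of the 38 compared lysosome genes (vertical axis) for OSM against vehicle (filled circles) and IL-6 against vehicle (open squares), ordered by the OSM value, with bars for 95% counting intervals and dashed lines at 2-fold. Litaf (3.39), Cd63 (1.80) and Cd68 (1.65) stand above the upper dashed line with OSM, and with IL-6 their values are 0.02, −0.03 and 0.13.

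Litaf encodes a small membrane protein of late endosomes and lysosomes, first described as a factor induced by lipopolysaccharide. It had 147 counts with vehicle, 160 with IL-6 and 1832 with OSM, or 1.13, 1.15 and 11.9 FPKM. The vehicle and IL-6 libraries lay close together and the OSM library far above them. Against vehicle the log2 fold change with OSM was 3.39 (95% interval 3.15 to 3.64), a 10.5-fold higher level. Against IL-6 it was 3.38 (3.14 to 3.62), and IL-6 differed from vehicle by 0.02 (−0.31 to 0.36). By FPKM, Litaf stood at position 37 of the lysosome genes with vehicle and at position 17 with OSM. The gene (ENSMUSG00000022500) spans chr16:10777139-10884021 on the minus strand of GRCm39. Snn, which partly overlaps this span on the opposite strand, had 684 counts with vehicle, 808 with IL-6 and 676 with OSM, so it was not higher in the OSM library.

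Cd63 encodes a tetraspanin of late endosomes, lysosomes and secreted vesicles. It had 4025 counts with vehicle, 4231 with IL-6 and 16652 with OSM, or 43.2, 42.4 and 151 FPKM. The OSM library again stood alone, at 1.80 (1.75 to 1.85) on the log2 scale against vehicle and 1.83 (1.79 to 1.88) against IL-6, while IL-6 against vehicle gave −0.03 (−0.09 to 0.04). This is 3.48-fold more than with vehicle in a gene that was already the sixth highest of the set. Cd63 (ENSMUSG00000025351, GRCm39 chr10:128736858-128748691, plus strand) has near-identical copies that cover 62.6% of its transcript. The pseudogene Cd63-ps, named after its values were seen, had 284 counts with vehicle, 340 with IL-6 and 1516 with OSM, so reads of the gene and its copy cannot be fully told apart. Summed over both, the log2 fold change with OSM against vehicle was 1.83 (1.78 to 1.88).

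Cd68 encodes a heavily glycosylated lysosomal membrane protein that is related to the LAMP proteins and widely used as a marker of macrophages. It had 382 counts with vehicle, 448 with IL-6 and 1419 with OSM, or 12.01, 13.2 and 37.8 FPKM. The log2 fold change with OSM was 1.65 (1.48 to 1.81) against vehicle and 1.52 (1.37 to 1.68) against IL-6. For IL-6 against vehicle it was 0.13 (−0.07 to 0.33), an interval that included 0. The gene (ENSMUSG00000018774) lies at GRCm39 chr11:69555039-69556979 on the minus strand, and at 1257 bases it is the shortest of the 39 in the deposited annotation. OSM fold changes ran higher in short genes, and relative to genes of similar length the Cd68 value against vehicle was 1.13 and was no longer called.

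Most other markers of macrophages were at or near 0 counts in these libraries, with Csf1r the exception. In bulk RNA, fewer cells of a type and less RNA per cell cannot be told apart. Of 23 macrophage markers other than Cd68, 12 had 0 counts with vehicle, 14 with IL-6 and 13 with OSM. In every library 10 had 0 counts, among them Ptprc, Fcgr1, C1qa, C1qb, C1qc, Cd163 and Tyrobp. The list summed to 259 counts with vehicle, 232 with IL-6 and 329 with OSM, or 2.70, 2.30 and 3.15 FPKM. Cd68 alone had 382, 448 and 1419 counts. Most of the list's counts came from Csf1r, the receptor for macrophage colony-stimulating factor, with 187, 166 and 209, or 1.28 FPKM with vehicle, 1.06 with IL-6 and 1.21 with OSM. The other markers together had 72, 66 and 120. Lyz2, a macrophage lysozyme, had 13 counts with vehicle, 4 with IL-6 and 31 with OSM, and was called higher with OSM than with IL-6. Of the 8 markers that could be compared with vehicle, 0 were called higher or lower with OSM, with a median log2 fold change of 0.84. Their values ran from −0.66 to 1.92, and intervals lay above 0 for 2, below 0 for 0 and included 0 for 6. Among the lysosome genes, cathepsin S, which macrophages express strongly, was at or under the floor. The part of macrophages in the Cd68 value was not tested.

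The 100 bases before the start of the canonical transcript of each of these 3 genes are shown because their transcripts were the ones called higher with OSM. They are read from GRCm39 in the direction of transcription, each ending at the base before the start of the canonical transcript. The windows are chr16:10811003-10811102 (minus strand) for Litaf, chr10:128745174-128745273 (plus strand) for Cd63 and chr11:69557068-69557167 (minus strand) for Cd68.
Litaf: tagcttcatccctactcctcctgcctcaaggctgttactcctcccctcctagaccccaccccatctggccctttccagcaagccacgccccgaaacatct
Cd63: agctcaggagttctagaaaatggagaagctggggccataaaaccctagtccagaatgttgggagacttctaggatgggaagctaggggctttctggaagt
Cd68: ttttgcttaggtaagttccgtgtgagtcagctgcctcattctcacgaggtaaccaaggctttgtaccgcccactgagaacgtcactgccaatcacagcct
No capitals appear in them, since none of the motifs searched for was found. In the wider window of 250 bases before and 50 after the start, CACGTG and the STAT-type motif TTCNNNGAA, where N is any base, were both without a match in all 3 genes. Both motifs read the same on either strand. TTCNNNGAA was found in the promoter of 1 of the 39 lysosome genes, Ctsc (2.56%), beside 8.81% of 21770 promoters of protein-coding genes. It was found in 7.39% of the promoters of the genes compared and in 10 of 92 (10.9%) of other listed lysosome genes. For each gene 1 start was searched, that of the canonical transcript, and any other start was not. The Litaf and Cd63 windows lie inside the gene spans given above. A match or its lack describes the letters of this window and no binding.

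The remaining 6 membrane proteins were not called in any comparison. Npc1, which exports cholesterol from the lysosome, had the lowest OSM value of the whole set, with 965 counts with vehicle, 1015 with IL-6 and 626 with OSM. Its log2 fold change was −0.87 (−1.02 to −0.73), a 1.83-fold lower level whose interval reached past 2-fold. Scarb2, the receptor that carries the enzyme glucocerebrosidase to lysosomes, had 3660, 4271 and 2931 counts and a log2 fold change of −0.57 (−0.64 to −0.50) with OSM. For IL-6 against vehicle it was 0.12 (0.06 to 0.19), so that Scarb2 was lowest with OSM and highest with IL-6.

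In values not adjusted for gene length, the abundant structural proteins of the lysosomal membrane moved less. Lamp2 had 32.9 FPKM with vehicle, 33.3 with IL-6 and 24.4 with OSM, with a log2 fold change of −0.44 (−0.49 to −0.39) for OSM against vehicle. Lamp1 stood at 152 FPKM with vehicle, 152 with IL-6 and 144 with OSM, a log2 difference of −0.09 (−0.13 to −0.05). Laptm4a, a multispanning lysosomal protein and the third highest of the set, had 218, 224 and 223 FPKM, and its OSM value of 0.02 (−0.02 to 0.06) included 0. Mcoln1, the calcium release channel of the lysosome, had 843, 846 and 857 counts and a log2 fold change of −0.22 (−0.36 to −0.08). Within the membrane group, then, the OSM values ran from −0.87 to 3.39 with a median of −0.09, and 5 of 9 genes had intervals below 0 beside the 3 called higher.

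**Figure D2:**
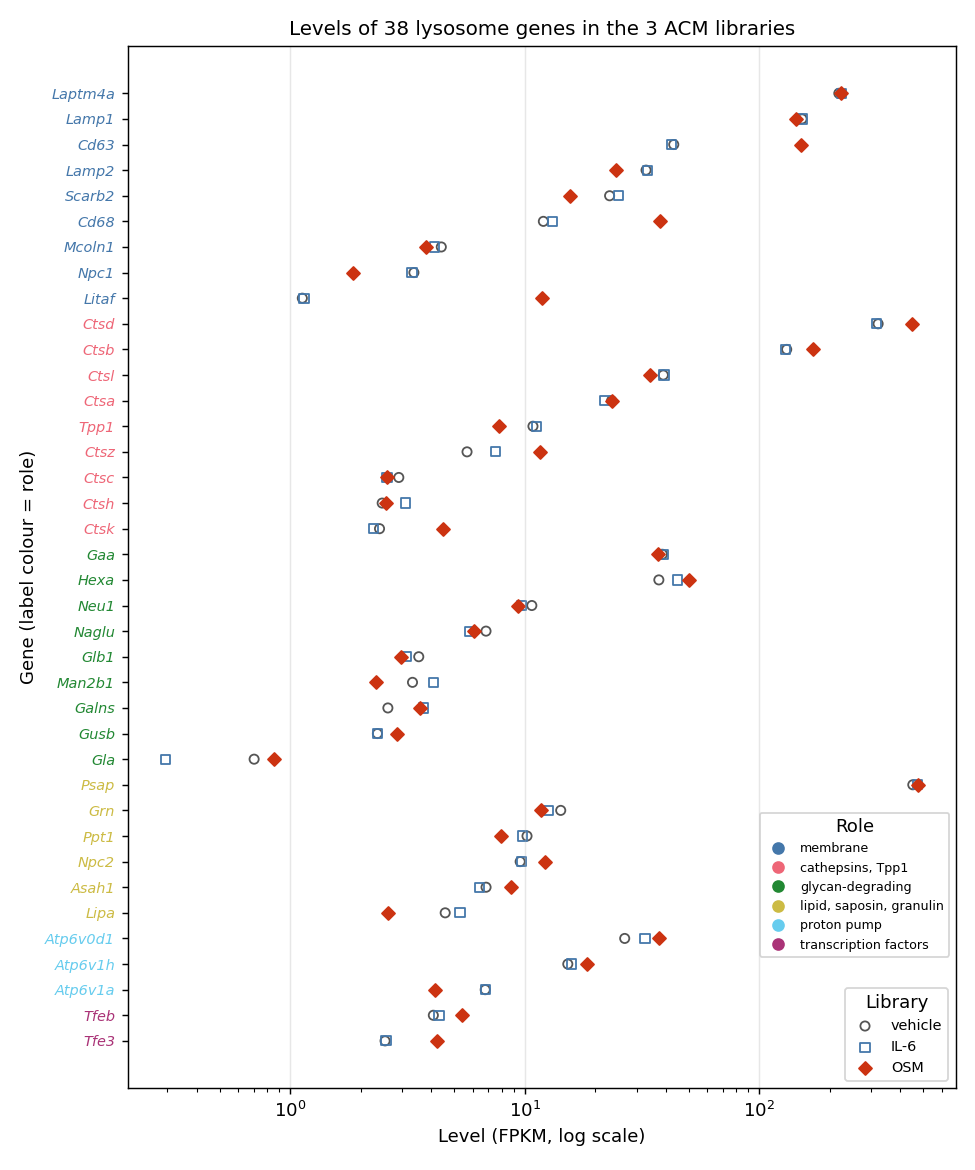
Levels of the 38 compared lysosome genes in FPKM (horizontal axis, log scale) with vehicle (circles), IL-6 (squares) and OSM (diamonds), with gene names coloured by role. For most genes the symbols overlap or lie close together, while the OSM symbols of Cd63 (151 against 43.2 FPKM with vehicle), Cd68 (37.8 against 12.01) and Litaf (11.9 against 1.13) lie far to the right.

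Both transcription factors of the set had higher counts with OSM, below the 2-fold threshold. Tfe3 had 595 counts with vehicle, 643 with IL-6 and 1164 with OSM, or 2.54, 2.56 and 4.21 FPKM. Its log2 fold change was 0.72 (0.58 to 0.87) for OSM against vehicle and 0.01 (−0.15 to 0.18) for IL-6 against vehicle. Tfeb had 585, 663 and 919 counts, with values of 0.40 (0.25 to 0.56) and 0.08 in the same order. Between OSM and IL-6 the differences were 0.71 (0.57 to 0.86) for Tfe3 and 0.33 (0.18 to 0.48) for Tfeb. For each of these factors the interval of IL-6 against vehicle included 0, and the OSM library lay above both others. Mitf, a related factor outside the set, named after its values were seen, went the other way. It had 1042 counts with vehicle, 982 with IL-6 and 741 with OSM. Its log2 fold change with OSM against vehicle was −0.74 (−0.88 to −0.60).

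CACGTG, the motif that TFEB and TFE3 are known to bind, was found in the promoter window of 10 of the 39 genes (25.6%), beside 7.81% of 21770 protein-coding promoters, 10.0% of those of the genes compared, and 21 of 92 promoters (22.8%) of other listed lysosome genes. The holders were Ctsb, Ctsd, Lamp1, Gaa, Atp6v1h, Atp6v1a, Mcoln1, Naglu, Glb1 and Gla. The longer palindrome TCACGTGA, which contains CACGTG, was found in 3 of the 39 (7.69%), namely Ctsb, Mcoln1 and Gla. It was found in 1.11% of all promoters, 1.64% of those of the genes compared and 14 of 92 (15.2%) of other listed lysosome genes. The palindrome with a further G and C at its ends was found in 0 of the 39. Its shares were 0.326% of all promoters, 0.505% of those of the genes compared and 4 of 92 (4.35%) of other listed lysosome genes. Each of these palindromes reads the same on both strands. Stretches of 5 of the promoters are shown because these genes carry the motif, with CACGTG in capitals, read in the direction of transcription from GRCm39. The windows are chr8:13209041-13209115 (plus strand) for Lamp1, chrX:133501925-133502004 (minus strand) for Gla, chr7:141941776-141941855 (minus strand) for Ctsd, chr11:119158613-119158692 (plus strand) for Gaa and chr9:114230064-114230143 (plus strand) for Glb1.
Lamp1: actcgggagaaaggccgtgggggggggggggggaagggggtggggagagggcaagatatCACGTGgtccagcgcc
Gla: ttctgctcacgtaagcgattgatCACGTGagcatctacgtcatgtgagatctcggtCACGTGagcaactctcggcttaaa
Ctsd: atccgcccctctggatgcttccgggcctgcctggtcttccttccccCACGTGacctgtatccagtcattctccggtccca
Gaa: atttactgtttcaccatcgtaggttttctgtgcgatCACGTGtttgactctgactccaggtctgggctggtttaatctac
Glb1: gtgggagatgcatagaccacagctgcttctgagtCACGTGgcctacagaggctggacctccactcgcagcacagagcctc
The 10 genes with CACGTG had a median log2 fold change of −0.08 with OSM against vehicle, from −0.72 (Atp6v1a) to 0.47 (Ctsd). The 28 compared genes without it had a median of 0.06, from −0.87 (Npc1) to 3.39 (Litaf). The genes called higher were all among those without the motif.

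The proton pump subunits did not move together. Atp6v0d1, a subunit of the membrane-embedded part, had 1211 counts with vehicle, 1583 with IL-6 and 2003 with OSM. Its log2 fold changes were 0.48 (0.37 to 0.58) with OSM and 0.29 (0.18 to 0.40) with IL-6. Atp6v1h, a regulatory subunit of the cytosolic part, had 3765, 4188 and 5354 counts and an OSM value of 0.26 (0.20 to 0.32). Atp6v1a, the catalytic subunit, was lower with OSM, at 750 counts beside 1038 with vehicle and 1113 with IL-6, with a log2 fold change of −0.72 (−0.85 to −0.58). For IL-6 against vehicle Atp6v1a gave 0.00 (−0.12 to 0.12).

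Among the cathepsins, cathepsins D and B, the most abundant, were higher with OSM by less than 2-fold, and the less abundant cathepsins Z and K had larger values. Ctsd, an aspartic protease, had 19112 counts with vehicle, 20197 with IL-6 and 31526 with OSM, or 321, 317 and 449 FPKM. The log2 fold change with OSM was 0.47 (0.45 to 0.50), and with IL-6 it was −0.02 (−0.05 to 0.01). Ctsb, a cysteine protease, had 20048, 21264 and 30520 counts and gave 0.36 (0.33 to 0.38) with OSM and −0.01 (−0.04 to 0.01) with IL-6. At this depth differences of this size exceed counting error, while the spread between repeated cultures is not known.

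Ctsz, a carboxypeptidase, had 5.68 FPKM with vehicle, 7.53 with IL-6 and 11.6 with OSM, from 207 counts with vehicle. It was thus lowest with vehicle and intermediate with IL-6, with log2 fold changes of 1.03 (0.79 to 1.27) for OSM and 0.41 (0.15 to 0.67) for IL-6. The point value lay past 2-fold and the interval did not. Nelfcd overlaps Ctsz on the opposite strand and had 611, 775 and 810 counts, and reads of overlapping genes cannot be told apart where counting ignores strand. Ctsk, a collagen-degrading protease best known from osteoclasts, had 92, 93 and 202 counts, with 0.89 (0.52 to 1.26) for OSM and −0.08 for IL-6.

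The other peptidases lay nearer to vehicle or below it. Tpp1, a tripeptidyl peptidase, had 1417 counts with vehicle, 1568 with IL-6 and 1198 with OSM, which gave −0.49 (−0.60 to −0.38) with OSM. Ctsl, another cysteine protease, had 6400, 6904 and 6657 counts, and its OSM value was −0.19 (−0.24 to −0.14). The intervals of Ctsa (−0.08 to 0.07), which protects neuraminidase and galactosidase, Ctsc (−0.38 to 0.01), a dipeptidyl peptidase, and Ctsh (−0.18 to 0.28), an aminopeptidase, included 0. Ctsc had 427 counts with vehicle, 407 with IL-6 and 447 with OSM. Ctsh was instead highest with IL-6, at 379 counts beside 281 with vehicle and 346 with OSM, with 0.33 (0.11 to 0.56) for IL-6 against vehicle. The 9 compared peptidases had a median of 0.05 with OSM and −0.01 with IL-6.

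Among the glycan-degrading enzymes, 0 of 9 were called, and the OSM values ran from −0.52 to 0.45 with a median of −0.07. Gaa, the acid glucosidase that degrades glycogen, had 4674 counts with vehicle, 5078 with IL-6 and 5304 with OSM, or 38.6, 39.2 and 37.1 FPKM, close in all libraries. Hexa, a hexosaminidase subunit, had 1885, 2424 and 2982 counts, with 0.41 (0.33 to 0.50) for OSM and 0.26 (0.18 to 0.35) for IL-6. Galns, a sulfatase of keratan sulfate, had 175, 265 and 283 counts, and OSM (0.45, 0.17 to 0.73) and IL-6 (0.50, 0.22 to 0.78) gave overlapping intervals above 0. For Hexa, Galns, Atp6v0d1 and Ctsz, therefore, both cytokine libraries lay above the vehicle library. Relative to genes of similar length, their OSM values were 0.04, 0.18, 0.08 and 0.53 in that order. Their IL-6 values relative to such genes were 0.25, 0.49, 0.29 and 0.39.

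Man2b1, an acid mannosidase, was the reverse between the cytokines, with 675 counts with vehicle, 890 with IL-6 and 557 with OSM. Its log2 fold change was −0.52 (−0.69 to −0.36) with OSM and 0.30 (0.15 to 0.45) with IL-6, and OSM against IL-6 gave −0.82 (−0.97 to −0.66). Gla, the galactosidase lost in Fabry disease, was the lowest of the compared genes, with 58, 26 and 83 counts or 0.702, 0.294 and 0.851 FPKM. The IL-6 library was the low one, at −1.26 (−1.98 to −0.57) against vehicle, an interval that did not clear 2-fold. OSM against vehicle gave 0.27 (−0.23 to 0.78) for Gla, and OSM against IL-6 gave 1.53 (0.88 to 2.23), past 2-fold in its point value and not in its whole interval.

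The remaining glycan enzymes differed little. With OSM against vehicle, Neu1, a neuraminidase, gave −0.21 (−0.34 to −0.08) and Gusb, a glucuronidase, 0.26 (0.03 to 0.49). Naglu, which acts on heparan sulfate, gave −0.17 (−0.36 to 0.02) from 460 counts with vehicle, 418 with IL-6 and 485 with OSM, and −0.24 (−0.43 to −0.04) for IL-6 against vehicle. Glb1, the lysosomal galactosidase known from senescence staining, had 269 counts with vehicle, 256 with IL-6 and 268 with OSM. After scaling to library size its OSM value was −0.25 (−0.50 to −0.0035), just below 0.

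In the lipid group, Psap, the precursor of the saposins that help hydrolases reach their lipids, was the highest of the 39 genes by FPKM in every library. It had 31351 counts with vehicle, 35125 with IL-6 and 38907 with OSM, or 452, 472 and 475 FPKM. Both cytokine values were 0.06 (0.04 to 0.09) against vehicle. Lipa, the acid lipase that frees cholesterol and fatty acids from lipoprotein, had 786, 974 and 527 counts, with −0.82 (−0.99 to −0.66) for OSM and 0.21 (0.07 to 0.35) for IL-6. OSM against IL-6 gave −1.03 (−1.18 to −0.87) for Lipa, the lowest value of the set in that pair, with an interval that crossed 2-fold. Npc2, the soluble partner of Npc1 in cholesterol export, had 1316, 1430 and 1974 counts and 0.34 (0.24 to 0.44).

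Grn, the precursor of granulins, had 1252 counts with vehicle, 1193 with IL-6 and 1219 with OSM, and OSM gave −0.29 (−0.40 to −0.17). Ppt1, which removes palmitate from proteins, had 951, 974 and 869 counts and −0.38 (−0.51 to −0.24). Asah1, the acid ceramidase, had 587, 588 and 886 counts and 0.35 (0.19 to 0.50). All 6 intervals of the lipid group excluded 0 with OSM, 3 above and 3 below, around a median of −0.11.

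By level, 37 of the 39 genes reached 1 FPKM in each library, beside 17.9% of all 56748 genes with vehicle. That share is over coding and noncoding genes, while the 39 are all protein-coding, so these shares are not like for like. The median level of the lysosome genes was 9.57 FPKM with vehicle, 9.66 with IL-6 and 9.33 with OSM, beside 6.92, 6.94 and 7.25 for protein-coding genes of at least 1 FPKM. With vehicle, Psap (452 FPKM), Ctsd (321) and Laptm4a (218) were highest, and Litaf (1.13), Gla (0.702) and Ctss (0) lowest. In the order of the 38 compared genes with vehicle, 22 of 37 neighbouring pairs had overlapping counting intervals, for instance Ctsl and Gaa, or Cd68 and Tpp1, and these neighbours cannot be ordered. Cd68 stood at position 16 with vehicle and at position 8 with OSM, where its interval overlapped that of its neighbour Atp6v0d1.

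The 39 genes together took 0.570% of all counts with vehicle (95% Clopper-Pearson interval 0.567 to 0.573), 0.587% with IL-6 (0.584 to 0.590) and 0.636% with OSM (0.633 to 0.639). Without Cd68, Litaf and Cd63 the shares were 0.552%, 0.569% and 0.571%. The IL-6 (0.566 to 0.572) and OSM (0.568 to 0.574) intervals of these shares overlapped. Psap, Ctsb and Ctsd supplied 49.6%, 49.5% and 51.6% of the lysosome counts.

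OSM fold changes varied with gene length. Over 9444 protein-coding genes with a mean of at least 100 counts, Spearman's rho between gene length and the OSM log2 fold change was −0.52, and over the 38 lysosome genes it was also −0.52. These are correlations across genes of the same libraries, which are not independent replicates. For IL-6 against vehicle rho was −0.07 over all such genes and −0.02 over the lysosome genes. The running median of genes of similar length was 0.52 at the length of Cd68, the shortest, and −0.44 at that of Npc1, the longest at 11317 bases. Relative to it, 20 of 38 lysosome genes lay above and their median was 0.0048.

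Relative to genes of similar length, Litaf stood at 3.43 and Cd63 at 1.68, close to their unadjusted values. Tfe3, a long gene of 9261 bases, stood at 1.09 and Tfeb at 0.49. Ctsz fell to 0.53 and Ctsk to 0.41, while Ctsb, at 6051 bases, came to 0.45. Atp6v1h came to 0.64. Lamp2 moved to −0.07, Lamp1 to −0.35 and Laptm4a to −0.38, the reverse of their unadjusted order. Lipa (−0.69), Atp6v1a (−0.62) and Npc1 (−0.43) kept values below 0. The part of length in any single value was not tested.

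**Figure D3:**
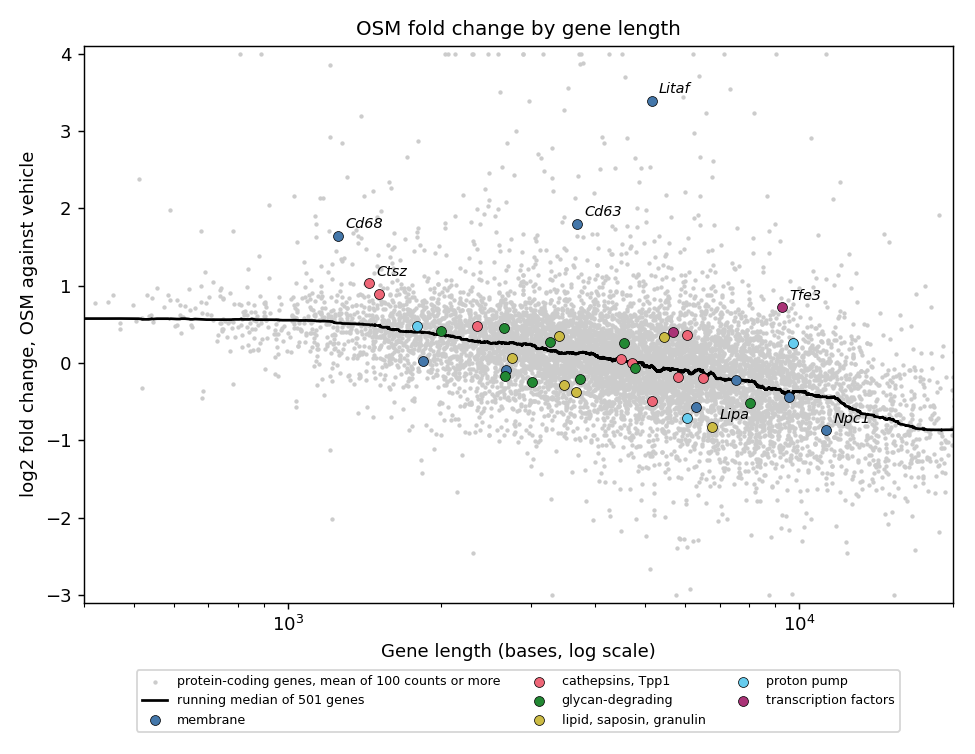
Log2 fold change of OSM against vehicle (vertical axis) by gene length in bases (horizontal axis, log scale) for protein-coding genes with a mean of at least 100 counts (grey, values past the axis drawn at −3 or 4), their running median (line) and the 38 lysosome genes coloured by role. The line falls from left to right, and Litaf, Cd63, Cd68 and Tfe3 lie above it while Lipa lies below.

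In 5 further lists of genes of the lysosome and its supply, 150 genes in all, the OSM library was called higher than vehicle in 2 genes and lower in 6, beside 3.70% and 5.46% of all genes compared. None of the 38 compared hydrolases and cofactors outside the set was called, with a median log2 fold change of −0.19. Among 30 other lysosomal membrane proteins the median was −0.20. Tmem106b, a lysosomal membrane glycoprotein, had 1962 counts with vehicle, 2432 with IL-6 and 1043 with OSM, and was lower with OSM by −1.16 (−1.27 to −1.05) on the log2 scale. Mcoln2, a channel related to Mcoln1, had 0 counts with vehicle, 7 with IL-6 and 13 with OSM, at least 3.65-fold higher with OSM against a floor of 3 counts.

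Proton pump subunits outside the set had a median of 0.23 over 17 genes, with 11 intervals above 0 and 3 below. The called gene was Atp6v1c2, an isoform of restricted tissue distribution, with 1 count with vehicle, 7 with IL-6 and 20 with OSM and a wide interval of 1.43 to 9.45 around 4.07. Another list held factors of the family of TFEB and TFE3 (MiT/TFE) and nutrient-sensing regulators. Among its 25 compared genes, 3 were called lower with OSM, beside 5.46% of all genes, and the median was −0.11. Fnip1 and Fnip2, partners of folliculin, had log2 fold changes of −1.36 (−1.48 to −1.25) and −1.21 (−1.34 to −1.09). Rragd, a Rag GTPase, had 4916 counts with vehicle, 5292 with IL-6 and 2762 with OSM, a value of −1.08 (−1.15 to −1.01).

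Of 31 genes listed under delivery to the lysosome, not all of which carry cargo there, Igf2r and Sorl1 were called lower with OSM. This share is near the 5.46% of all genes called lower. Igf2r, the receptor that sorts newly made hydrolases by their mannose phosphate tag, had 4995 counts with vehicle, 5262 with IL-6 and 2610 with OSM, which gave −1.18 (−1.25 to −1.12). Sorl1, a sorting receptor, had 492, 672 and 208 counts and −1.49 (−1.73 to −1.25). Several of these genes are long, and relative to genes of similar length the values were −0.96 for Tmem106b, −1.15 for Fnip1, −0.88 for Fnip2, −1.04 for Rragd, −0.80 for Igf2r and −1.05 for Sorl1. With the intervals shifted likewise, 1 of these 6 calls remained, that of Fnip1. With IL-6 against vehicle 0 genes of the 5 lists were called. Against IL-6, Tmem106b, Fnip1, Rragd, Igf2r and Sorl1 were again called lower with OSM, and Rnaset2a, a lysosomal ribonuclease with 8, 0 and 22 counts, was called higher, at least 6.64-fold against the floor.

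**Figure D4:**
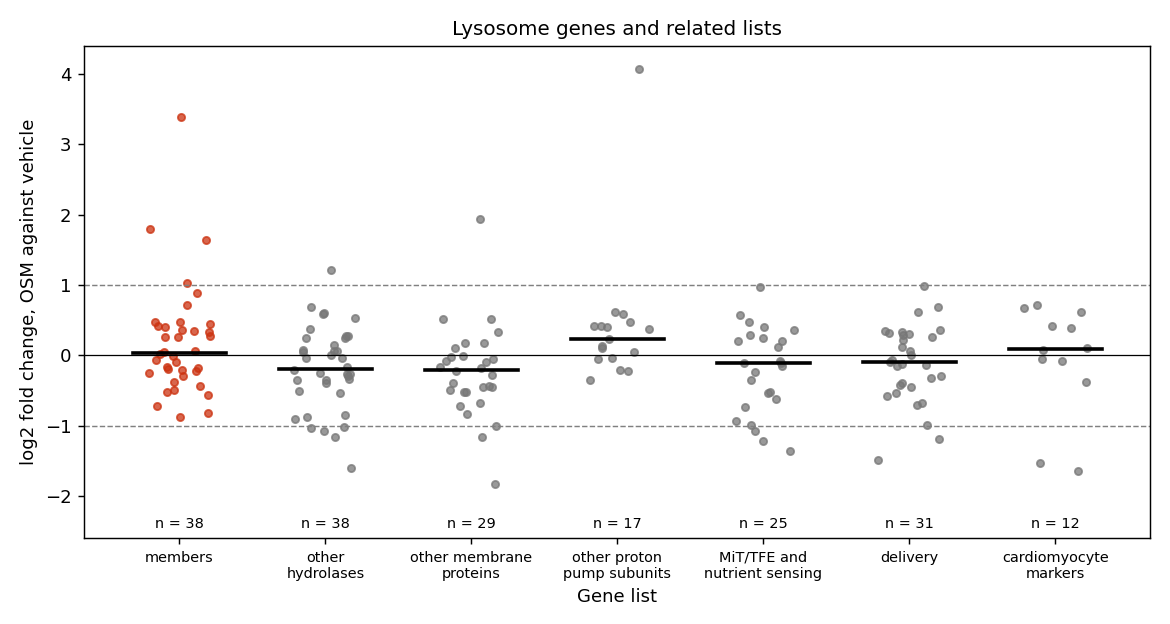
Log2 fold changes of OSM against vehicle (vertical axis) for the 38 compared lysosome genes (red) and for related lists and cardiomyocyte markers (grey), with a bar at the median of all genes compared in each list and dashed lines at 2-fold; n counts the genes drawn, and Mcoln2, with 0 counts with vehicle, is not drawn. The medians lie between −0.20 and 0.23, and Litaf, Cd63 and Cd68 are the highest points of the lysosome genes; the grey point at 4.07 is Atp6v1c2, which rests on 1 count with vehicle.

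Among markers of other cell types, 0 of 6 compared fibroblast markers and 0 of 10 endothelial markers were called with OSM against vehicle, beside 3.70% of all genes called higher and 5.46% lower. The 6 fibroblast markers had a median log2 fold change of −0.30, with the lowest at −1.47 and the highest at 1.75. Intervals included 0 for 5 of them and lay above 0 for 1, Dcn, named after its values were seen. Dcn had 49 counts with vehicle, 48 with IL-6 and 131 with OSM and a log2 fold change of 1.17 (0.69 to 1.68). Of the endothelial markers, 2 intervals lay above 0 and 1 below. Against IL-6, the fibroblast marker Col1a2 was called lower with OSM. Of 12 cardiomyocyte markers, Ttn and Ryr2, the longest, were called lower with OSM, at −1.64 (−1.68 to −1.60) and −1.53 (−1.57 to −1.50). The other 10 were not called.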

How the data were processed

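Paired RNAseq reads of 3 libraries, 1 per condition, were mapped by the authors to GRCm39. The submitters' processing notes name fastp, HISAT2 2.2.1, featureCounts 2.0.6 and edgeR 4.0.16, and the study's methods name other versions of the counting and testing tools. Whether counting used the strand is not given in the sources used here, so values of overlapping genes are uncertain. Of the 39 genes, 10 overlap a gene with at least 10 counts, 9 of them on the opposite strand. The authors deposited whole-number read counts per gene without normalization, and FPKM values of the same genes, which are scaled by gene length and library size. Gene lengths and coordinates are those of the deposited annotation. Every column of library values was matched to its label (0 left over).

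TMM factors were computed for each pair of libraries over genes with at least 10 counts in the pair, with edgeR 4.0.16 in R 4.3.3. The number of genes compared was 15537 between OSM and vehicle, 15472 between IL-6 and vehicle and 15544 between the cytokines. No model with replicates could be fitted and no P-value is given. Intervals were computed with scipy 1.17.1 in Python 3.11.15. The floor of 3 counts equals 0.120 CPM with vehicle, 0.114 with IL-6 and 0.0975 with OSM. A fold against a library with 0 counts is a bound against that floor per library. Promoters, 250 bases before to 50 after the start of the GENCODE M39 canonical transcript, were read from GRCm39, where 56017 of the 56748 gene identifiers were found. Near-identical copies were matches of at least 75 bases at 97% identity between transcripts.

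All 39 genes could be named. Values in every library were given for called genes, the 5 largest and smallest log2 fold changes of each comparison with vehicle, and the 3 highest and lowest levels. From other lists, up to 5 called genes, the 3 macrophage markers with the highest FPKM and genes overlapping a described member could be named. Other genes of the set, macrophage markers at 0 counts, and single genes marked as such are named outside this rule. The set, the lists and these rules were chosen with earlier results of these data known. The alternatives were DESeq2 1.42.0 factors, total counts, an FPKM ratio with a pseudocount of 0.1, a prior count of 5, no filter, a filter at 100 counts, a 1.5-fold threshold, the point value alone, an assumed biological coefficient of variation of 0.2, removal of the length trend, and leaving out Cd68 and Litaf.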

Additional observations from a re-analysis of the deposited data

How the results depend on the processing

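Under 11 alternatives, 1139 values of single lysosome genes were computed, and 1121 of them kept their call (higher, lower or none). Of the rest, 5 lost a call, 13 gained one and 0 changed to the opposite call. This tally is of calls, and the sign of small values could change. For OSM against vehicle, Laptm4a ran from −0.38 to 0.03 and Psap from −0.19 to 0.07. With the intervals widened for a coefficient of variation of 0.2 between cultures, an assumed value, 1 gene was called higher with OSM against vehicle (Litaf), while Cd63 and Cd68 lost their calls. Removal of the length trend left 2 called, without Cd68 (1.13 against vehicle, 1.04 against IL-6). Leaving out Cd68 and Litaf left 1 called higher against vehicle and 1 against IL-6 (Cd63). A 1.5-fold threshold gave 5 genes higher and 4 lower for OSM against IL-6, and 4 higher (adding Ctsz) and 2 lower (Npc1 and Lipa) against vehicle. Point values past 2-fold gave 4 higher (adding Gla) and 1 lower (Lipa) for OSM against IL-6, 4 higher (adding Ctsz) for OSM against vehicle, and 1 lower for IL-6 against vehicle (Gla).

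For the 5 lists of other lysosome genes, the total called for OSM against vehicle went from 8 to 22 at 1.5-fold, 17 by point values, 1 with the assumed variation and 4 without the length trend. For OSM against IL-6 it went from 6 to 18, 12 and 1, and for IL-6 against vehicle from 0 to 2 at 1.5-fold and 3 by point values. Over all genes, calls ran from 199 higher and 243 lower (assumed variation) to 1559 and 2049 (point values) for OSM against vehicle, beside 575 and 849. They ran from 241 and 251 to 1555 and 1986 in the same settings for OSM against IL-6, beside 659 and 846. For IL-6 against vehicle they ran from 12 and 7 (at least 100 counts) to 1040 and 1023 (point values), beside 274 and 269. Beyond the settings themselves, the cause was not tested.

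No paired analysis was possible because each condition has 1 library, and leaving out a library leaves no comparison. Counting intervals do not hold the spread between cultures. Ctss, with at most 2 counts, was not compared at this depth. Gla, with 26 to 83 counts, had an interval too wide to place it on either side of 2-fold for IL-6 against vehicle.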
